A study of Mus musculus with 12 samples.

Results

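The genes described here are the 3 TGF-beta ligands Tgfb1, Tgfb2 and Tgfb3, the receptors Tgfbr1, Tgfbr2 and Tgfbr3, and the signal transducers Smad2, Smad3, Smad4 and Smad7. They were chosen by name, with earlier results of these data known, and all 10 had a probe set, among 19938 genes on the arrays. Each was measured by 1 probe set that carries its symbol alone.

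The 12 arrays, 4 per group, measured RNA of donor CD4+ T cells sorted after 2 or more divisions in a mismatched host. Spleen cells of C57Bl/6 mice, stained with the division dye CFSE, were transferred into B6D2F1 mice to start a graft-versus-host response, and both strains were 10 to 12 weeks old. Control hosts were given vehicle on days 0 and 1. A single TCDD dose of 15 µg/kg was given on day 0 to the second group, and the third group was dosed with 2 mg/kg Cl-BBQ on both days. The divided cells of spleen and lymph node were taken on day 2 (48 hr) with CD4 beads and flow sorting. TCDD, a persistent dioxin, and Cl-BBQ both bind the aryl hydrocarbon receptor (AhR), which then enters the nucleus and turns on target genes. The compounds were given at different doses and schedules, and TCDD and vehicle hosts also differed in the number of injections. The labels name no gene deletion or transgene in any group. In sorted bulk cells, more cells with a transcript and more transcript per cell cannot be told apart.

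TGF-beta is a cytokine that restrains T cell growth and effector function and supports regulatory and gut-resident T cells. Its ligands are secreted in a latent complex and are released from it by integrins or proteases. The free dimer binds the type II receptor (Tgfbr2), which recruits and phosphorylates the type I receptor (Tgfbr1), while betaglycan (Tgfbr3) presents ligand. The activated receptor phosphorylates Smad2 and Smad3, which enter the nucleus with Smad4, and Smad7 feeds back to shut the receptor down.

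One of the ligands, Tgfb3, rose with both compounds, and none of the other 9 genes passed the test in any comparison. Against vehicle, Tgfb3 was 2.18-fold higher with TCDD and 1.59-fold higher with Cl-BBQ. A gene was called at a limma adjusted p under 0.05 over all 19938 genes. By this rule 1.24% of all genes were called with TCDD (0.873% higher and 0.366% lower), 0.196% with Cl-BBQ (0.145% higher and 0.0502% lower) and 0.015% between the compounds. Against these shares, 1 of 10 members was called with TCDD, 1 of 10 with Cl-BBQ and 0 of 10 between the compounds; in that last comparison 1 of 10 had an unadjusted p under 0.05, as did 2.99% of all genes. Unadjusted, 2 of 10 members reached 0.05 with TCDD, beside 8.69% of all genes, and 1 of 10 with Cl-BBQ, beside 7.91%. The median log2 difference of the 10 genes was 0.0116 with TCDD, beside 0.00418 for all genes, and 0.0453 with Cl-BBQ, beside 0.0107 for all genes. All levels below are log2 intensities, and differences are differences of log2 means. A level is compared only between samples for the same gene, since probe sets differ in brightness.

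**Figure D1:**
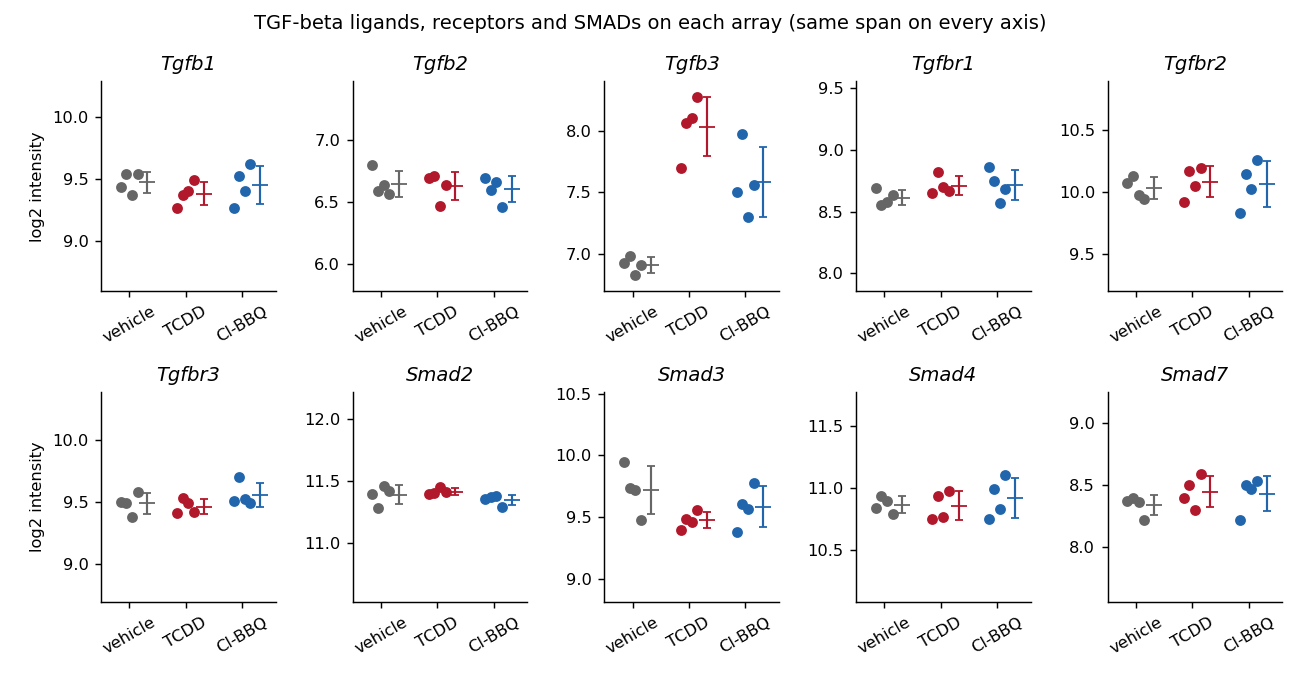
Log2 intensity of the 10 genes on every array, in 3 groups of 4. Points are arrays, the bar beside them is mean ± SD, and every panel spans the same log2 range. In Tgfb3 the TCDD and Cl-BBQ arrays lie above all vehicle arrays, and in the other genes the treated arrays overlap those of vehicle.

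Tgfb3 encodes a ligand that some helper T cells are known to produce. In vehicle hosts its level was 6.93, 6.99, 6.83 and 6.91 in replicates 1 to 4 (mean 6.91 ± 0.07, SD, n = 4). With TCDD the 4 arrays were at 7.70, 8.06, 8.10 and 8.27 (8.04 ± 0.24, SD, n = 4). With Cl-BBQ they were at 7.50, 7.97, 7.30 and 7.56 (7.59 ± 0.28, SD, n = 4). All 8 treated arrays were above the highest vehicle array, and the vehicle arrays lay closest together. Arrays of the groups did not overlap in either direction for 5.8% of all genes with TCDD and 3.85% with Cl-BBQ. The ranges of TCDD and Cl-BBQ overlapped, since Cl-BBQ replicate 2 exceeded TCDD replicate 1. TCDD against vehicle gave a log2 difference of 1.12 (SE 0.13, 95% interval 0.85 to 1.39; limma adjusted p = 0.000178). Tgfb3 ranked as number 20 of all genes by p in that comparison and number 26 by size among the 174 called increases. This call held in all 21 alternative fits, with log2 differences of 1.04 to 1.23 and adjusted p up to 0.0017.

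The rise with Cl-BBQ was smaller, at a log2 difference of 0.67 (SE 0.13, 95% interval 0.40 to 0.94; limma adjusted p = 0.0421). It was number 37 of all genes by p and number 14 by size among the 29 called increases. This call was close to the threshold and held in 7 of 21 alternative fits. The difference stayed between 0.54, without Cl-BBQ replicate 2, and 0.77, without Cl-BBQ replicate 3, with adjusted p of 0.00998 to 0.146 and unadjusted p of 2e-05 to 0.000389. Among the 12 fits that leave out 1 array, the call was lost without Cl-BBQ replicates 2 or 4, without TCDD replicates 2 or 3, or without any 1 of the 4 vehicle arrays, and it held in the other 4.

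Set against each other, TCDD gave a higher Tgfb3 level than Cl-BBQ by 0.45 (95% interval 0.18 to 0.72, unadjusted p = 0.00284 from limma), which did not pass the test over all genes (limma adjusted p = 1). The interval is that of a single gene, uncorrected for the number of genes, and with the replicate number as a block the adjusted p was 0.547. The Cl-BBQ mean lay at 0.599 of the way from the vehicle mean to the TCDD mean. Single Cl-BBQ arrays lay at 0.526, 0.944, 0.347 and 0.578 of that way in replicates 1 to 4, so replicate 2 came close to the TCDD mean and replicate 3 moved least.

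**Figure D2:**
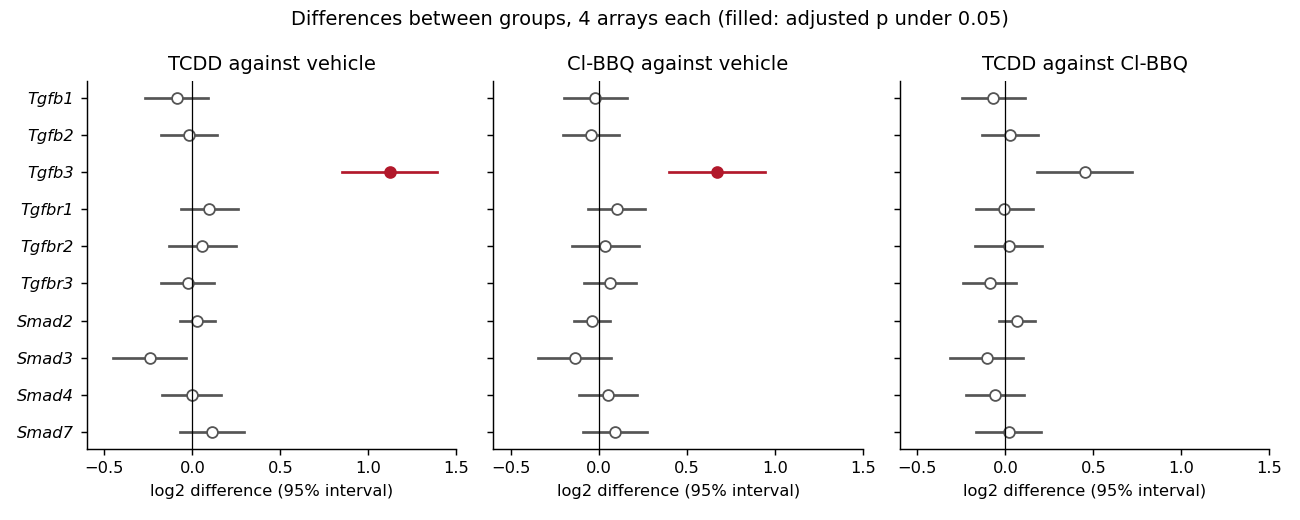
Log2 differences of the 10 genes in the 3 comparisons, with 95% intervals from limma; filled points passed an adjusted p of 0.05. Tgfb3 stands at 1.12 and 0.67 against vehicle, and the intervals of all other members include 0 except that of Smad3 with TCDD.

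The other ligands showed no such rise. Tgfb1, the main TGF-beta of immune cells, was at 9.43, 9.54, 9.37 and 9.54 with vehicle, at 9.26, 9.37, 9.40 and 9.49 with TCDD, and at 9.26, 9.52, 9.40 and 9.62 with Cl-BBQ. The groups overlapped, and the log2 difference from vehicle was -0.09 with TCDD (95% interval -0.27 to 0.09; limma adjusted p = 0.861) and -0.02 with Cl-BBQ (95% interval -0.20 to 0.16). Tgfb2, a ligand better known from development, ranged from 6.57 to 6.80 with vehicle, 6.47 to 6.71 with TCDD and 6.46 to 6.70 with Cl-BBQ. Its log2 difference was -0.02 with TCDD and -0.05 with Cl-BBQ, with 95% intervals within -0.21 and 0.14. The deposited table holds no detection calls, so whether Tgfb2 was above background is not known; it was the only member below the limit for dim genes (a mean of 6.94) tried as an alternative.

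Receptor transcripts did not pass the test with either compound. Tgfbr1, the type I receptor kinase, was at 8.61 ± 0.06 with vehicle, 8.71 ± 0.08 with TCDD and 8.71 ± 0.12 with Cl-BBQ (SD, n = 4 each). Its log2 difference was 0.10 with TCDD (95% interval -0.06 to 0.26) and 0.10 with Cl-BBQ (95% interval -0.06 to 0.26). Tgfbr2, the ligand-binding type II receptor, was at 10.02 ± 0.09, 10.08 ± 0.12 and 10.06 ± 0.18 in the same order of groups. The difference from vehicle was 0.06 with TCDD (95% interval -0.14 to 0.25) and 0.04 with Cl-BBQ (95% interval -0.15 to 0.23). Tgfbr3, the co-receptor betaglycan, was at 9.50, 9.49, 9.38 and 9.58 with vehicle, at 9.41, 9.53, 9.49 and 9.42 with TCDD, and at 9.51, 9.70, 9.52 and 9.49 with Cl-BBQ. Replicate 2 stood above the other Cl-BBQ arrays, and the groups overlapped; the differences from vehicle were -0.03 and 0.06. Over the 3 receptors and both compounds the intervals ran from -0.18 to 0.26, and limma adjusted p from 0.78 to 0.968.

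Of the SMADs, Smad3 moved most without passing the test. It was at 9.95, 9.74, 9.72 and 9.48 with vehicle, at 9.40, 9.49, 9.46 and 9.56 with TCDD, and at 9.38, 9.61, 9.57 and 9.78 with Cl-BBQ. Vehicle replicate 4 lay within the TCDD range, and vehicle replicate 1 above all other arrays. The log2 difference with TCDD was -0.24 (95% interval -0.45 to -0.04, unadjusted p = 0.0246; limma adjusted p = 0.447). Leaving out 1 array at a time gave values between -0.32, without vehicle replicate 4, and -0.17, without vehicle replicate 1, and no call. With Cl-BBQ the Smad3 difference was -0.14 (95% interval -0.34 to 0.07; limma adjusted p = 0.771).

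Smad2, the other receptor-activated SMAD of this pathway, was the steadiest member, at 11.39 ± 0.08 with vehicle, 11.41 ± 0.03 with TCDD and 11.35 ± 0.04 with Cl-BBQ (SD, n = 4 each). Its TCDD arrays (11.39 to 11.45) lay above its Cl-BBQ arrays (11.29 to 11.38), as was so in either direction for 2.04% of all genes, with a log2 difference of 0.07 (unadjusted p = 0.181 from limma). Smad4, the common partner SMAD, was at 10.87 ± 0.07, 10.86 ± 0.12 and 10.92 ± 0.16 with vehicle, TCDD and Cl-BBQ. Smad7, the inhibitory SMAD that TGF-beta signalling is known to induce, ranged from 8.22 to 8.40 with vehicle, 8.30 to 8.59 with TCDD and 8.22 to 8.53 with Cl-BBQ. The Smad7 difference was 0.11 with TCDD (95% interval -0.07 to 0.29; limma adjusted p = 0.823) and 0.09 with Cl-BBQ (95% interval -0.09 to 0.28; limma adjusted p = 0.827).

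The core site of AhR and its partner ARNT, GCGTG, was sought in the 250 bases before the start of the members with an entry in the RefSeq promoter table (GRCm38.p6), to show where members that did not pass the test hold it. A match on either strand, as GCGTG or CACGC, was present in 4 of 6 windows, namely those of Tgfb1, Tgfbr2 and Smad3 and the first of 2 of Tgfbr1, and absent from the second Tgfbr1 window and that of Tgfb2. The promoters of Tgfb3, Tgfbr3, Smad2, Smad4 and Smad7 were not analysed here. Of all 32851 such windows 28.2% held a match, and of windows with at least 60% G and C 53.9% did; the windows with matches in Tgfb1, Tgfbr1 and Smad3 held 75.2%, 74.8% and 69.2% G and C, and that of Tgfbr2 58.4%. Both sequences below hold 2 matches, as 8.63% of windows held 2 or more; matches are in capitals, and positions count back from the start. In Tgfbr1 they begin at -214 and -186 of the first of 2 listed starts, and in Smad3 at -205 and -194. The Tgfbr1 window is chr4:47352972-47353221 on the plus strand and the Smad3 window chr9:63757995-63758244 on the minus strand, each written 5′ to 3′ along the gene.
Tgfbr1: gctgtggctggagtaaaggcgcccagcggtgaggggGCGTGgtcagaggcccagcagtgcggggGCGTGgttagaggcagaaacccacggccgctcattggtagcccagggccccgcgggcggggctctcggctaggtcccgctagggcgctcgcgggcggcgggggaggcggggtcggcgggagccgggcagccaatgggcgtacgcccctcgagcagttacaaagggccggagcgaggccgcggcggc
Smad3: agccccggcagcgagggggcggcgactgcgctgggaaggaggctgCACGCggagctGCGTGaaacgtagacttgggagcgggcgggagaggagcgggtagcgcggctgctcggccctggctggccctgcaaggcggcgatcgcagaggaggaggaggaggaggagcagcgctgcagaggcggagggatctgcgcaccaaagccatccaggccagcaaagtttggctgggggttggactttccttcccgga
A match in these letters is a description and not a measured binding site.

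The genes whose values over the 12 arrays were most like those of Tgfb3, by Pearson correlation among 19937 genes, were Gpr15 (r = 0.983), Zswim6 (0.976), L1cam (0.97), Sgms1 (0.97) and Rasgrp4 (0.967). These arrays share the group differences, so the measure describes likeness and carries no test. Gpr15 is a receptor that guides T cells to the large intestine, L1cam an adhesion molecule, Sgms1 a sphingomyelin synthase and Rasgrp4 an activator of Ras. After subtracting each group's mean, the correlation with Tgfb3 over the 12 arrays was 0.876 for Gpr15, 0.85 for Zswim6, 0.903 for L1cam, 0.805 for Sgms1 and 0.842 for Rasgrp4. All 5 were called higher with TCDD (all genes: 0.873%). They were picked for likeness to Tgfb3, which itself rose, so these calls are part of that likeness and no separate result. Their log2 differences were 2.50 for Gpr15, 0.82 for Zswim6, 0.75 for L1cam, 0.51 for Sgms1 and 0.81 for Rasgrp4. With Cl-BBQ, Gpr15 and Zswim6 were called and the others were not: L1cam was at 0.57 (limma adjusted p = 0.0508), Sgms1 at 0.34 (adjusted p = 0.125) and Rasgrp4 at 0.56 (adjusted p = 0.0759). This division lay close to the threshold: of 21 alternative fits, Gpr15 was called in 15, Zswim6 in 16, L1cam in 7, Rasgrp4 in 2 and Sgms1 in 1.

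Of 5 known AhR target genes, all rose with TCDD (all genes: 0.873%) and none passed the test with Cl-BBQ (all genes, higher: 0.145%). Cyp1b1, a cytochrome P450, was 11.2-fold higher than vehicle with TCDD and 2.18-fold with Cl-BBQ (limma adjusted p = 0.298). Nqo1, a quinone reductase, was 3.44-fold higher with TCDD and 1.78-fold with Cl-BBQ (limma adjusted p = 0.0735). With Cl-BBQ the limma adjusted p was 0.129 for Ahrr, the AhR repressor, 0.587 for Cyp1a1 and 0.67 for Tiparp. Unadjusted, 4 of the 5 had a limma p under 0.05 with Cl-BBQ, beside 7.91% of all genes. Leaving out Cl-BBQ replicate 3 gave calls for 3 of them with Cl-BBQ, at limma adjusted p of 3.5e-06 for Cyp1b1, 0.00721 for Nqo1 and 0.0492 for Ahrr. In likeness to Tgfb3, Nqo1 was number 7 (r = 0.966), Ahrr number 11 (r = 0.96), Cyp1b1 number 95 (r = 0.894), Tiparp number 188 (r = 0.844) and Cyp1a1 number 250 (r = 0.812). After subtracting group means the correlation was 0.825 for Nqo1 and 0.807 for Ahrr, but 0.519 for Cyp1b1, 0.388 for Tiparp and 0.04 for Cyp1a1. Cl-BBQ replicate 3 was the lowest Cl-BBQ array for Tgfb3 (7.30), Gpr15 (7.20), Nqo1 (6.59), Ahrr (5.95) and Cyp1b1 (5.93). In Cyp1b1 it lay below all vehicle arrays (6.25 to 6.57), whereas in Tgfb3, Gpr15, Nqo1 and Ahrr it lay above all of them. Measured on the way from the vehicle mean to the TCDD mean, replicate 3 lay at -0.138 for Tiparp, -0.125 for Cyp1b1 and 0.0999 for Cyp1a1. It lay at 0.152 for Nqo1, 0.166 for Ahrr, 0.295 for Gpr15 and 0.347 for Tgfb3. Without that array the Tgfb3 difference with Cl-BBQ was 0.77 (limma adjusted p = 0.0238).

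**Figure D3:**
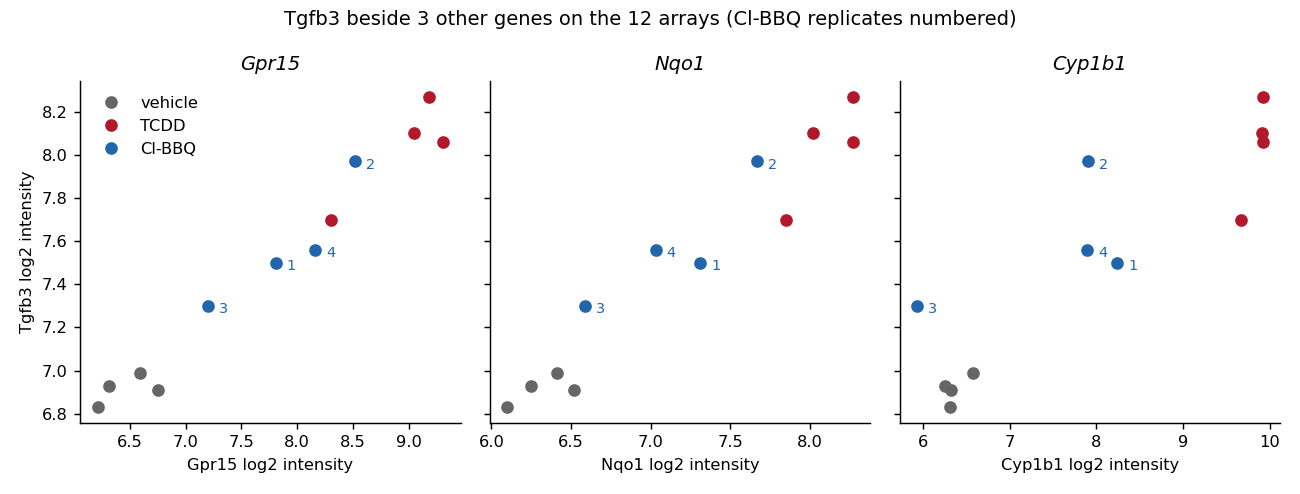
Tgfb3 log2 intensity against that of Gpr15, Nqo1 and Cyp1b1 on the 12 arrays, coloured by group, with Cl-BBQ replicates numbered. Gpr15 and Nqo1 line up with Tgfb3 (r = 0.983 and 0.966), while Cl-BBQ replicate 3 lies at 5.93 for Cyp1b1, beside or below the vehicle arrays.

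Within groups, part of the members varied together. After subtracting group means, 7 of the 45 pairs of members correlated above 0.7 over the 12 arrays and 0 below -0.7, with a median of 0.0724. The highest were Tgfbr2 with Smad4 (0.916), Tgfb1 with Tgfbr2 (0.841), Smad4 with Smad7 (0.839) and Tgfbr2 with Smad7 (0.82). The share of all gene pairs above 0.7 was not computed, so the count cannot be called particular to the members. Cl-BBQ replicate 1 was the lowest and replicate 4 the highest of its group in Tgfb1 (9.26 and 9.62), Tgfbr2 (9.83 and 10.26), Smad3 (9.38 and 9.78), Smad4 (10.75 and 11.11) and Smad7 (8.22 and 8.53). With TCDD, replicate 4 was likewise the highest in all 5 of these genes, and replicate 1 the lowest in Tgfb1 (9.26), Tgfbr2 (9.92), Smad3 (9.40) and Smad4 (10.75). The same arrays differed across the whole table. The first component of all genes' deviations from their group means held 37.4% of that variance and set replicate 1 apart from replicate 4 in both treated groups (0.626 and -0.322 with Cl-BBQ, 0.363 and -0.314 with TCDD), with vehicle replicate 3 at 0.329. Its correlation with the members was -0.928 for Tgfb1, -0.866 for Tgfbr2, -0.721 for Smad4, -0.673 for Smad7, -0.637 for Tgfb3 and -0.516 for Smad3. For the other members it was -0.495 for Tgfbr3, 0.375 for Tgfb2, 0.224 for Smad2 and 0.189 for Tgfbr1. The median size over all genes was 0.485. A larger size than that of Tgfb1 was reached by 3% of genes, than that of Tgfb3 by 33.3% and than that of Smad3 by 46.7%. These correlations describe arrays that share their processing, and the part of this axis in the group differences was not tested.

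**Figure D4:**
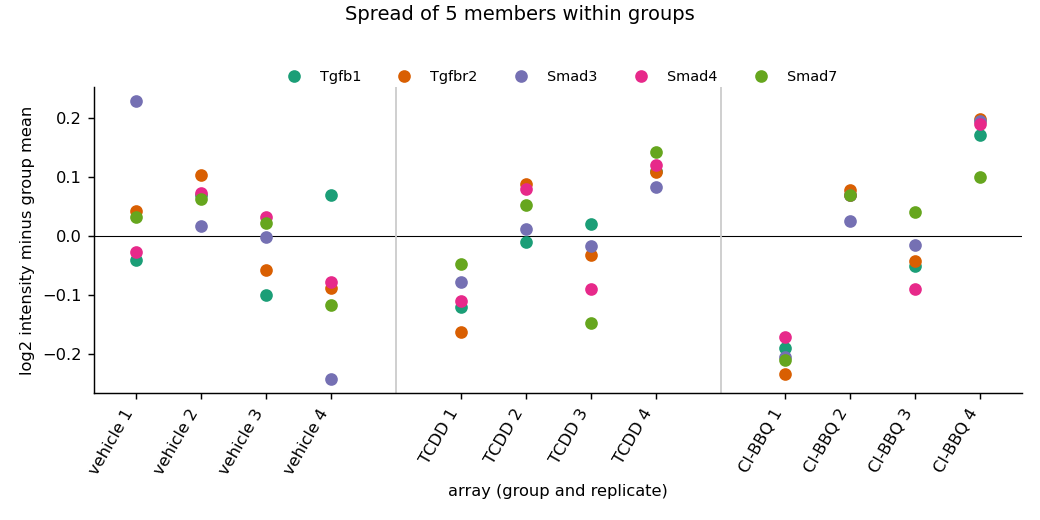
Log2 intensity minus the mean of its group for Tgfb1, Tgfbr2, Smad3, Smad4 and Smad7 on each array. All 5 points lie lowest within the Cl-BBQ group on replicate 1 and highest on replicate 4, and in the TCDD group all 5 lie highest on replicate 4 and all but Smad7 lowest on replicate 1. In the vehicle group the order differs, with replicate 4 lowest in Tgfbr2, Smad3, Smad4 and Smad7 and not in Tgfb1.

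Beyond the members, 76 of 80 listed pathway genes were measured, from lists chosen with earlier results of these data known. With TCDD 6 of them rose and 3 fell (all genes: 0.873% and 0.366%). With Cl-BBQ 3 rose and 1 fell (all genes: 0.145% and 0.0502%). The median log2 difference of the 76 was 0.0242 with TCDD and 0.0225 with Cl-BBQ, beside 0.00418 and 0.0107 for all genes. Among 15 genes of latency and activation, which keep the ligands inactive or free them, Itgb1 fell with both compounds and the other 14 were not called. At an unadjusted p under 0.05 there were 5 of the 15 with TCDD and 4 with Cl-BBQ. Of all genes, 8.69% and 7.91% reached it. Itgb1, the integrin β1 chain, was lower by a log2 difference of -0.72 with TCDD (limma adjusted p = 0.000667) and -0.67 with Cl-BBQ (adjusted p = 0.0135), the latter lost in 3 of 21 alternative fits. Genes of integrins and anchors that handle latent TGF-beta, named here after their values were seen, were not called. Itgb3, the β3 chain, was at a log2 difference of 0.40 with TCDD (limma adjusted p = 0.053, called in 7 of 21 alternative fits). Lrrc32, which anchors latent TGF-beta on regulatory T cells, was at 0.05 with TCDD and 0.01 with Cl-BBQ. Itgav, the αv chain, was at 0.07 and 0.10, Itgb8, the β8 chain, at -0.20 and -0.26, and Furin, which cleaves the precursors, at 0.26 and 0.05.

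None of the 12 other receptors of the superfamily, of the 4 other SMADs or of the 21 SMAD partners was called by limma with either compound. At an unadjusted p under 0.05 there were 2, 0 and 1 of them with TCDD and 1, 0 and 1 with Cl-BBQ. Of all genes, 8.69% and 7.91% reached it. Acvrl1, a type I receptor, was at a log2 difference of 0.28 with TCDD (limma adjusted p = 0.129) and Bmpr1a, a BMP receptor, at 0.22 (adjusted p = 0.654). Smad5, a transducer of BMP signals, was at 0.10 and Smad6, an inhibitory SMAD, at 0.07. Ldlrad4 and Pmepa1, known as feedback inhibitors that bind receptor-activated SMADs, were at -0.37 (limma adjusted p = 0.615) and 0.26 (adjusted p = 0.277) with TCDD.

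Genes that TGF-beta is known to raise or lower in T cells moved in no single direction. Of 11 measured genes known to be raised, Itgae rose with TCDD (all genes: 0.873%), and none was called with Cl-BBQ. An unadjusted p under 0.05 from limma was reached by 1 of the 11 with TCDD and 2 with Cl-BBQ, beside 8.69% and 7.91% of all genes. Itgae, the αE chain of CD103 that retains T cells in epithelium, was at 6.99, 7.01, 7.27 and 7.27 with vehicle, at 7.42, 7.97, 8.38 and 8.12 with TCDD and at 7.41, 7.55, 7.47 and 7.37 with Cl-BBQ. Every treated array was above every vehicle array. The groups did not overlap in either direction for 5.8% of all genes with TCDD and 3.85% with Cl-BBQ. The log2 difference of Itgae was 0.84 with TCDD (limma adjusted p = 0.00606) and 0.31 with Cl-BBQ (adjusted p = 0.629). The difference between the compounds was 0.52 (95% interval 0.21 to 0.83; limma adjusted p = 1). Foxp3, the regulatory T cell factor, was at 0.06 with TCDD and -0.15 with Cl-BBQ.

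Of 13 genes known to be lowered by TGF-beta, 5 rose and 2 fell with TCDD (all genes: 0.873% and 0.366%). With Cl-BBQ 3 of them rose (all genes: 0.145%). At an unadjusted p under 0.05 from limma there were 8 of the 13 with TCDD and 8 with Cl-BBQ. Of all genes, 8.69% and 7.91% reached it. Those that rose with TCDD go against the name of the list: the granzyme genes Gzma and Gzmb by 2.41 and 1.72, Il12rb2, an interleukin-12 receptor chain, by 1.65, Prf1 (perforin) by 0.45 and Gata3, a Th2 factor, by 0.40. Those that fell were Eomes, a T-box factor, by a log2 difference of -0.64, and the cytokine gene Il2, at -0.48. Of 21 alternative fits, the call with TCDD was lost in 11 for Il2, 7 for Prf1, 6 for Gata3 and 4 for Eomes, and in 0 for the others. With Cl-BBQ, Gzma, Gzmb and Il12rb2 rose by 1.53, 1.33 and 1.15, and their calls were lost in 2, 11 and 5 of 21 alternative fits. Prf1 (0.42), Gata3 (0.24), Eomes (-0.49) and Il2 (-0.39) went the same way with Cl-BBQ as with TCDD. They were not called with Cl-BBQ, at limma adjusted p of 0.118 to 0.402. Across this list the median log2 difference was 0.07 with TCDD and -0.08 with Cl-BBQ, beside 0.00418 and 0.0107 for all genes.

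**Figure D5:**
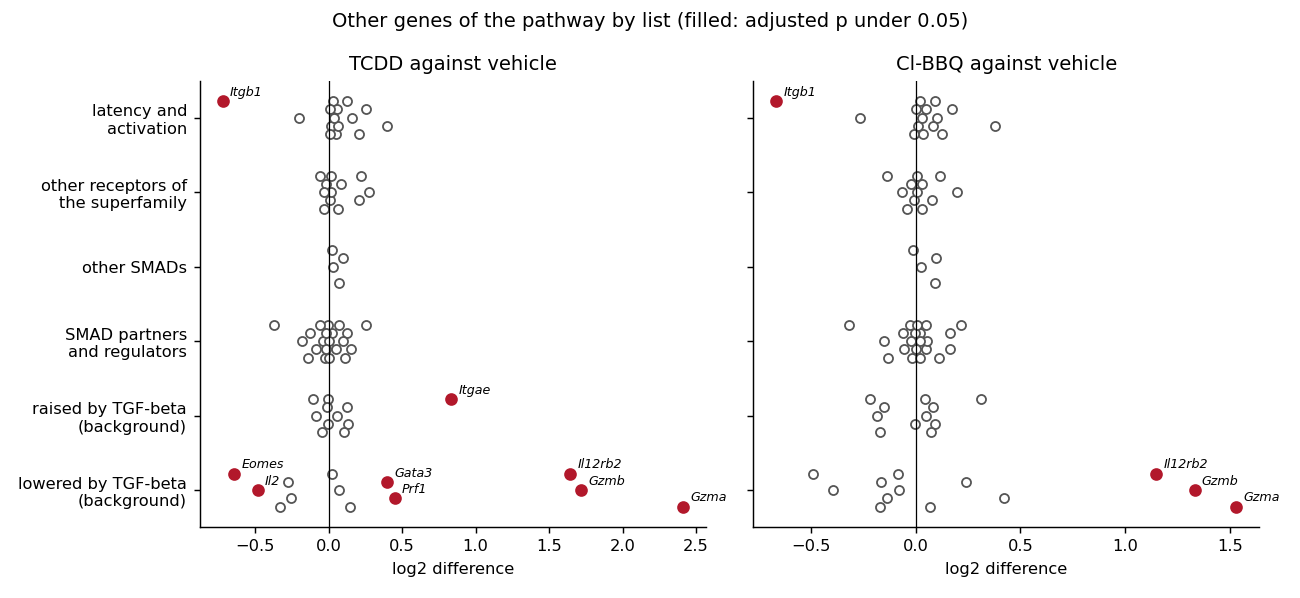
Log2 differences from vehicle for 76 pathway genes in 6 lists, with TCDD on the left and Cl-BBQ on the right; filled and labelled points passed an adjusted p of 0.05. Called genes lie among the latency list (Itgb1) and the lists of genes known to respond to TGF-beta, and 0 of the receptors, SMADs and partners are filled.

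The sorted cells carried CD4 T cell markers throughout, with 10 of 12 listed genes measured at mean levels of 10.2 (Zap70) to 13 (Cd3g) and 0 called with either compound. Summed on the linear intensity scale, they ran from 52810 to 56253 with vehicle, 52568 to 56828 with TCDD and 51195 to 58320 with Cl-BBQ. Platelet and neutrophil markers (9 of 10 measured, 0 called) summed to 776 to 904, 827 to 930 and 844 to 972. Platelets store TGF-beta. The mean log2 levels of these markers ran from 4.75 for Pf4, a platelet chemokine, to 7.66 for Treml1. Stromal markers (8 of 9, 0 called) summed to 993 to 1124, 1048 to 1169 and 1046 to 1214. Myeloid and dendritic markers (12 of 12, 0 called) summed to 1272 to 1382, 1274 to 1343 and 1283 to 1411. B and plasma cell markers (9 of 10) summed to 984 to 1242 with vehicle, 922 to 1009 with TCDD and 934 to 1018 with Cl-BBQ. In that list Cd22 and Bank1 fell with TCDD, by log2 differences of -0.96 and -0.48, and 0 were called with Cl-BBQ; Bank1 lost its call in 9 of 21 alternative fits. CD8 (2 of 2 measured, sums of 906 to 1308 over the 3 groups), NK (4 of 5, 167 to 274) and erythroid markers (2 of 5, 201 to 263) held 0 called genes. The CD8 markers had mean log2 levels of 7.2 (Cd8a) and 9.84 (Cd8b1). Cd22 and Bank1 moved opposite to Tgfb3, and the other 7 measured genes of the B cell list were not called with TCDD. The log2 differences of all 9 with TCDD had a median of -0.00282 and ran up to 0.226. The part of B cell RNA in the rise of Tgfb3 was not tested. At an unadjusted p under 0.05 from limma, the lists with 0 called genes held 1 CD4 gene with TCDD and 0 with Cl-BBQ. They also held 2 myeloid genes with each compound and 0 of the platelet, stromal, CD8, NK and erythroid genes. With Cl-BBQ 2 B cell genes reached it. Of all genes, 8.69% did with TCDD and 7.91% with Cl-BBQ.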

How the data were processed

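The deposited values were log2 intensities that the authors made by robust multi-array average (RMA), per the submitters' processing notes. Which RMA version was used, with which probe library and over which arrays, is not stated here; the log2 scale was read from the values (2.49 to 14.2, array medians 7.11 to 7.24). Pairs of the 12 arrays correlated at 0.988 to 0.995 over 35556 probe sets. Of these 21789 carried 1 gene symbol, and the probe set with the highest mean per symbol was kept, giving 19938 genes. All 10 members matched RefSeq by Entrez identifier.

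One limma 3.58.1 model (R 4.3.3) held all 3 groups, with 9 residual degrees of freedom, an intensity trend, two-sided tests and Benjamini-Hochberg adjustment over all genes; the code was tested on simulated data. Precision is limited by 4 arrays a group. The replicates are labelled biological. The p-values judge differences of group means against the spread between these samples within groups, estimated per gene over all 3 groups.

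Members and lists were chosen with earlier results of these data known. Named were all members, AhR target genes, the 5 genes most like each called member, and from each list the called genes or, with none, the 2 with the largest difference; Itgb3, Lrrc32, Itgav, Itgb8, Furin, Foxp3, Cd22 and Bank1 were named outside this rule, after their values were seen.

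The deviations of same-numbered TCDD and Cl-BBQ arrays from their group means correlated at 0.606, 0.113, 0.157 and 0.365. For TCDD with vehicle arrays the values were -0.0701, 0.14, 0.0402 and 0.182, and for Cl-BBQ with vehicle -0.134 to 0.0871. Arrays of unlike number were not compared, so these values cannot show a pairing. Alternatives were leaving out each array, normalization, array weights, a replicate block, no trend, a filter on dim genes, fits of 2 groups and other uses of probe sets. Figures were drawn with matplotlib 3.10.9.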

Additional observations from a re-analysis of the deposited data

Results flagged for a closer look

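Tgfbr3 on the Cl-BBQ array of replicate 2 stood apart from the other 3 arrays of its group, at a log2 intensity of 9.7 beside a lowest value of 9.49. Its gap to the next array was 0.871 of the group's range, above Dixon's 95% critical value for 4 samples. This was 1 of 30 groups of arrays tested over the 10 members, and chance flags about 5% of groups.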

How the results depend on the processing

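Of 30 member results, 29 kept their call or its absence in all 21 alternative fits (20 for Tgfb2, removed by the filter on dim genes); the exception was Tgfb3 with Cl-BBQ. Among 585 refitted values of uncalled members 36 changed sign, with no call on either side. The number of members called with Cl-BBQ, 1 in the main analysis, ranged from 0 to 1 with each array left out. It was 0 after quantile normalization, median centring, array weights, no intensity trend, a fit of the 2 groups or every probe set on its own; Tgfb3 then had limma adjusted p of 0.0505, 0.146, 0.0597, 0.0623, 0.0682 and 0.0513. Over all genes, 247 were called with TCDD, 150 (without TCDD replicate 3) to 321 with each array left out, 160 after median centring, 391 with array weights and 397 with the replicate block. With Cl-BBQ 39 were called, 3 to 61 with each array left out (61, 3 and 16 without Cl-BBQ replicates 1, 2 and 4, 16 without TCDD replicate 2, 9 and 4 without vehicle replicates 1 and 4), 71 after quantile normalization, 8 after median centring, 18 without an intensity trend, 11 in the fit of 2 groups, and 111 with the replicate block. Between the compounds 3 were called, 0 to 7 with each array left out (7 and 1 without Cl-BBQ replicates 1 and 3, 0 without Cl-BBQ replicate 4 or any 1 of the TCDD or vehicle arrays), 9 with array weights, 5 with the replicate block and 0 after quantile normalization, without a trend or in the fit of 2 groups. The cause of these moves was not tested. With the replicate block Tgfb3 kept its calls with TCDD (adjusted p = 4.05e-05) and Cl-BBQ (adjusted p = 0.00998), and no other member was called; numbers are not stated to pair vehicle arrays with treated ones, and 2 of 4 pairs with TCDD and 0 of 4 with Cl-BBQ correlated over 0.1. Depth is not defined for arrays. Without detection calls, the dim values of Tgfb2, and of Tgfb3 with vehicle, carry no statement on presence.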
